A study of Mus musculus with 16 samples.

Results

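The effect of a Crebbp deficiency on hippocampal RNA was measured in 8 pairs of arrays, each pair holding an array labelled cbp+/- and a Wild-type array of the same housing and the same replicate number. The pairs take in all 16 arrays of the series, 5 pairs from standard cages and 3 pairs from environmental enrichment. All mice were females of 3 months from an F2 of C57BL/6J and DBA, a mixed background, and carried either a heterozygous Crebbp deficiency (cbp+/-) or, as wild-type littermates, none. Mice stayed in standard cages or spent 2 weeks in large boxes fitted with running wheels, tubing and toys. Each array held RNA pooled from 4 animals, so that 64 animals were read as 16 pools, and variation between single animals is not seen. Per the labels' protocols, pools are biological replicates independent of each other. The labels do not say what the replicate number stands for (litter, dissection or hybridization day). Pairs are written SC_1 to SC_5 (standard cage) and EE_1 to EE_3 (enrichment), and a difference is the log2 intensity on the array labelled cbp+/- minus that on its Wild-type partner.

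Crebbp encodes CBP, a large coactivator that transcription factors recruit to promoters and enhancers, where it acetylates lysines of histones and other proteins. Phosphorylated CREB is its best known partner, and Ep300 encodes its close paralog p300. In the hippocampus CBP is known for its part in memory and in activity-dependent transcription, and loss of 1 copy in humans causes Rubinstein-Taybi syndrome. The deficiency is carried by every cell type of the tissue. In whole hippocampus fewer cells of a type and less RNA per cell cannot be told apart.

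Of 28815 deposited probe sets, 21780 carried exactly 1 gene symbol (19935 genes) and were tested with limma. Array medians over them lay between 93.5 and 100.05 intensity units. By mean level the 12 fixed markers of hippocampal neurons lay at percentiles 46.3 (Iyd of CA3) to 99.0 (Pcp4 of CA2) of the tested probe sets, and the 6 of striatum and thalamus at 39.2 (Drd2) to 67.7 (Prkcd). These ranges overlap, and since levels of different probe sets are not comparable, they are no measure of purity. Ttr, the leading transcript of choroid plexus, spanned 7.14 to 12.69 (log2 intensity) over the arrays, and choroid plexus genes stood apart in the pair SC_3, as given with the gene lists.

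Crebbp, the targeted gene, was higher and not lower on the array labelled cbp+/- in 8 of 8 pairs. In standard-cage pairs 1 to 5, Crebbp measured 9.32, 9.41, 9.55, 9.64 and 9.21 (log2 intensity) on the Wild-type arrays and 9.50, 9.42, 9.68, 9.88 and 9.35 on the arrays labelled cbp+/-. In enrichment pairs 1 to 3 the Wild-type levels were 9.25, 9.18 and 9.35, against 9.37, 9.33 and 9.37. The smallest difference was in SC_2 and the largest in SC_4, and the levels of the groups overlapped in both housings. The mean difference was 0.12 (SE 0.033, n = 8 pairs, limma adjusted p = 0.309). An exact two-sided sign-flip permutation test of the 8 differences gave p = 0.0078, the smallest that 8 pairs allow. Any probe set with 8 of 8 pairs one way reaches that p, so it adds nothing to the count of pairs. Such probe sets made up 1.02% (higher) and 0.927% (lower) of all. The probe set reads the transcript along its length, and the labels do not say which of its probes lie in the altered part of the gene. Since the targeted gene does not go the way of the label, arrays are called "labelled cbp+/-" and every direction rests on the titles. Ep300 differed by 0.02 (SE 0.044), with 5 of 8 pairs higher.

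No probe set passed an adjusted p of 0.05 over the 8 pairs: limma called 0 of 21780 (0%), and the smallest adjusted p, 0.0737, belonged to Pcdhb3. Of the 21780 mean differences, 9739 were above 0 and 12041 below. That uneven split is the background for members of a gene list counted as higher or lower. At an unadjusted p under 0.05, 1081 probe sets were higher (4.96%) and 858 lower (3.94%) on the arrays labelled cbp+/-. In 222 probe sets (1.02%) the array labelled cbp+/- was the higher of the pair in 8 of 8 pairs, and in 202 (0.927%) the lower; 211 of the former and 182 of the latter also had an unadjusted p under 0.05. Without the pairs, the same 16 arrays gave 610 probe sets under an unadjusted p of 0.05 against 1939 with them, and again 0 after adjustment. The median standard error of a difference was 0.046 with pairs and 0.065 without, and it was smaller with pairs for 77.5% of probe sets. The genes named in what follows are therefore those at the head of a ranking, and none of them is a called change.

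The 12 genes with the smallest p among those higher had differences of 0.21 to 0.49, which is 1.16-fold to 1.40-fold, and adjusted p-values of 0.0737 to 0.205 (limma). Protocadherin beta genes made up 4 of them: Pcdhb3, Pcdhb7, Pcdhb4 and Pcdhb2. The others were Asl, the urea cycle enzyme argininosuccinate lyase; Nudt17, a nudix hydrolase; Anxa4, a calcium-dependent phospholipid binder; Slc22a8, the organic anion transporter OAT3; Atp6v1f, a subunit of the vacuolar proton pump; Vtn, the secreted adhesion protein vitronectin; Rplp0, a protein of the ribosomal stalk; and Tmem267, a membrane protein.

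Pcdhb3 stood at 7.74, 7.48, 6.77, 6.87 and 7.12 (log2 intensity) on Wild-type standard-cage arrays 1 to 5 and at 7.89, 7.87, 7.06, 7.23 and 7.47 on their partners labelled cbp+/-. With enrichment, Wild-type arrays 1 to 3 gave 7.01, 7.02 and 7.41 for Pcdhb3 and their partners 7.37, 7.59 and 7.77. Each partner labelled cbp+/- was the brighter, yet Wild-type arrays of SC_1 and SC_2 outshone most arrays labelled cbp+/- of other pairs, so that the groups overlapped in both housings. The mean difference was 0.35 (SE 0.041, adjusted p = 0.0737 by limma, n = 8 pairs), or 1.28-fold, with a range over pairs of 0.16 to 0.57. In the fit without pairs its standard error was 0.158. The log2 intensity of Asl was 7.10, 7.14, 6.94, 6.84 and 7.13 on the Wild-type arrays of standard-cage pairs 1 to 5, beside 7.37, 7.37, 7.17, 7.14 and 7.43 on the arrays labelled cbp+/-. The enrichment pairs gave 7.12, 7.06 and 6.61 on the Wild-type arrays and 7.37, 7.24 and 7.20 on those labelled cbp+/-. The widest gap was in EE_3 (0.59), where the Wild-type array was the dimmest of all 16, and the other 7 pairs lay between 0.18 and 0.30. The Asl mean was 0.29 (SE 0.044, limma adjusted p = 0.146), and the 3 enriched arrays labelled cbp+/- lay above the 3 Wild-type ones. Enriched groups did not overlap, in one direction or the other, for 10.4% of all probe sets.

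Anxa4 was the one gene of these 12 whose standard-cage groups did not overlap: 5.87 to 6.10 on Wild-type arrays (median 6.05) and 6.19 to 6.50 on arrays labelled cbp+/- (median 6.34). Of all probe sets, 0.262% had standard-cage groups that did not overlap. Its mean difference over 8 pairs was 0.27 (SE 0.043), larger in standard cages (0.32) than with enrichment (0.19), though the difference between housings had an adjusted p of 0.766 (limma). Atp6v1f was read by a second probe set, which gave 0.20 beside 0.22, with 8 of 8 pairs higher in each. Rplp0 gave 0.23 and 0.18 in its probe sets. Ribosomal protein genes have many processed copies, so that the source of the Rplp0 signal is uncertain.

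Lcn2, which encodes the secreted siderophore binder lipocalin-2 and is known as an acute-phase gene, had the largest mean difference among the named genes higher in 8 of 8 pairs. In standard-cage pairs 1 to 5, Lcn2 measured 5.28, 5.42, 5.50, 5.37 and 5.45 (log2 intensity) on the Wild-type arrays and 5.89, 5.51, 5.55, 5.47 and 7.90 on the arrays labelled cbp+/-. In enrichment pairs 1 to 3 the Wild-type levels were 5.66, 5.60 and 5.40, against 5.88, 6.26 and 7.90. The arrays labelled cbp+/- of SC_5 and EE_3 stood far above the other 14, at 7.90 each. The mean difference of 0.84 had an SE of 0.296 and an adjusted p of 0.451 (limma). C1qa, a complement gene of microglia, was also highest on these arrays, at 8.76 and 8.61. Its mean difference was 0.19 (SE 0.10), or 0.097 without EE_3. The microglia and complement list as a whole had a median difference of 0.004, with 0 of 16 members under an unadjusted p of 0.05. The pair medians of the list were highest in SC_5 (0.23) and EE_3 (0.13), where Lcn2 also stood highest, and were -0.13 to 0.05 in the other pairs. In standard cages the summed intensity of that list was 7911 to 10657 on arrays labelled cbp+/- and 8291 to 11105 on Wild-type arrays. With enrichment it was 9005 to 10796 on arrays labelled cbp+/- and 8814 to 9612 on Wild-type arrays. The part of these cells in the Lcn2 values was not tested.

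**Figure D1:**
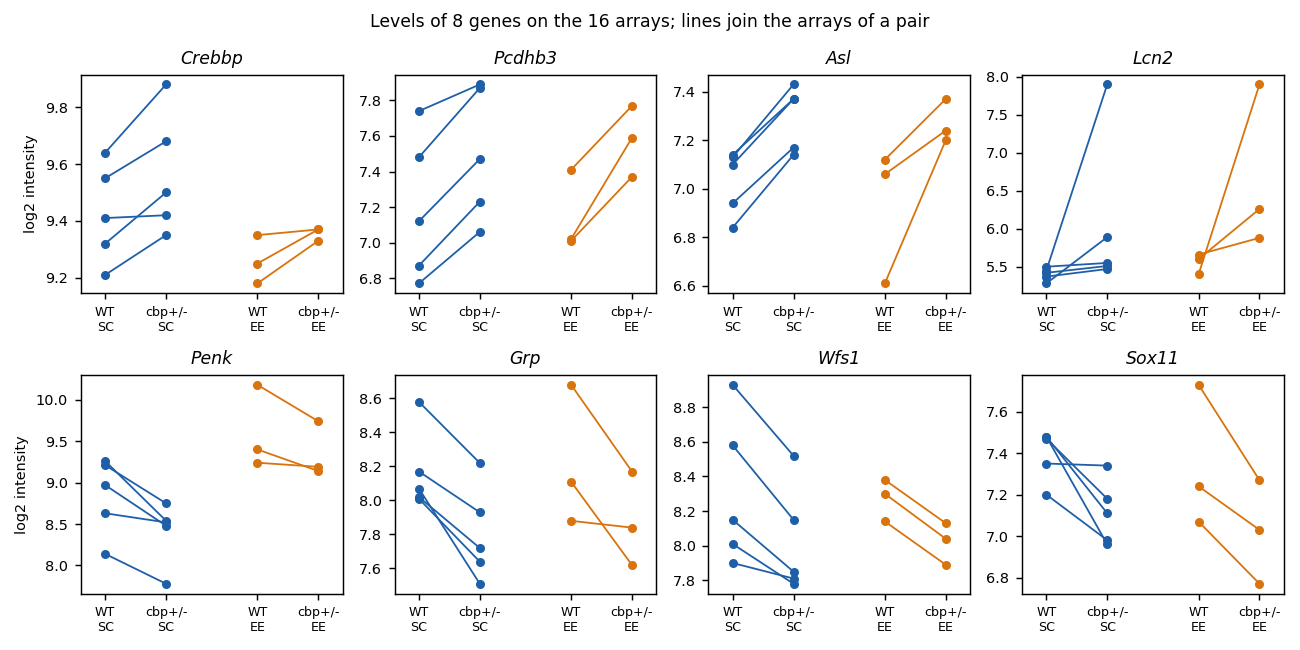
Log2 intensity (y axis) of 8 genes on the 16 arrays; each line joins the Wild-type array and the array labelled cbp+/- of a pair, standard cage (SC) on the left and enrichment (EE) on the right of each panel. Lines slope up in 8 of 8 pairs for Crebbp, Pcdhb3, Asl and Lcn2 and down in 8 of 8 for Penk, Grp, Wfs1 and Sox11; in Lcn2, 2 arrays labelled cbp+/- reach 7.90.

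The clustered protocadherins are neuronal adhesion proteins whose beta genes are single-exon copies in a row on chromosome 18, each neuron using a small random choice of them. Of 21 measured beta genes, 20 had a higher mean on the arrays labelled cbp+/-, 13 with an unadjusted p under 0.05 (against 4.96% of all probe sets) and 6 in 8 of 8 pairs (against 1.02%). The median of the 21 mean differences was 0.146, beside -0.006 for all probe sets, and it lay between 0.097 and 0.246 in 19 alternative settings. These genes are close copies, and probes of a member can take up transcripts of another, so that the 21 values are not independent.

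Pcdhb2 showed the widest mean difference of the cluster, 0.49 (SE 0.085): its pairs gave 0.22, 0.13, 0.54, 0.23 and 0.62 in standard cages and 0.61, 0.59 and 0.99 with enrichment. Pcdhb7 followed with a mean of 0.36 (SE 0.055), although the partners of SC_1 were level at 7.97. Pcdhb10 was at -0.11 in SC_1 and between 0.14 and 0.48 in the other 7 pairs. At the far end of the numbering Pcdhb22 had a mean of -0.05, with 3 of 8 pairs higher, and the dim Pcdhb1, at the near end and not in the list, had 0.02.

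SC_1 was the pair that stood apart. In it 9 of 21 members were higher and 12 lower, with a median of -0.11, while the other pairs had 16 to 19 members higher and medians of 0.12 to 0.31. The medians of the enrichment pairs were 0.22, 0.27 and 0.31. The Wild-type array of SC_1 held the highest Wild-type levels of Pcdhb3 (7.74), Pcdhb7 (7.97) and Pcdhb2 (7.32). Without SC_1, limma called Pcdhb3 and Pcdhb7 (adjusted p = 0.0211 each). Leaving out any other single pair gave 0 calls (smallest adjusted p of 0.0713 to 0.32 by limma). SC_1 is the pair that went against the rest in these genes, so the 2 calls are no separate support. Hdac3, a deacetylase gene on the same chromosome, had a difference of 0.15 (SE 0.049).

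**Figure D2:**
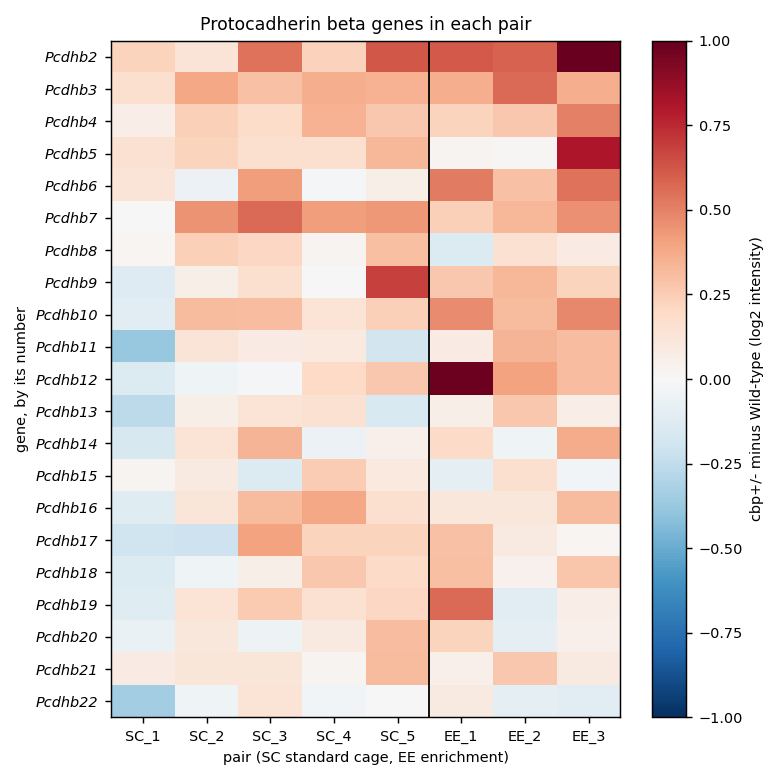
Differences (cbp+/- minus Wild-type, log2 intensity, colour) of 21 protocadherin beta genes (rows, by number) in each of the 8 pairs (columns; the line parts standard cage from enrichment). Red cells are higher on the array labelled cbp+/-; in SC_1, 12 of 21 members are lower, and in the other pairs 2 to 5.

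Among the genes lower on the arrays labelled cbp+/-, the 12 with the smallest p had differences whose size ran from 0.18 to 0.36, or 1.13-fold to 1.28-fold, and adjusted p-values of 0.146 to 0.205 (limma). They included signalling genes of neurons: Grp, the neuropeptide gastrin-releasing peptide; Kcnq3, a subunit of the M-type potassium channel; Grik3, a kainate receptor subunit; Pde11a, a phosphodiesterase of cyclic nucleotides known for its ventral hippocampal expression; and Sorcs1, a sorting receptor. Wfs1, the wolframin gene of the endoplasmic reticulum, marks CA1 pyramidal cells. Cdh4 encodes R-cadherin, Sox11 a transcription factor of newborn neurons, Spred2 an inhibitor of Ras signalling, Parm1 a mucin-like membrane protein and Bfsp2 a filament protein known from the lens. Luzp2 is a leucine zipper protein gene.

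Wfs1 stood at 7.90, 8.01, 8.93, 8.58 and 8.15 (log2 intensity) on Wild-type standard-cage arrays 1 to 5 and at 7.81, 7.78, 8.52, 8.15 and 7.85 on their partners labelled cbp+/-. With enrichment, Wild-type arrays 1 to 3 gave 8.38, 8.30 and 8.14 for Wfs1 and their partners 8.13, 8.04 and 7.89. Pair SC_3 was the brightest under both labels in standard cages, and the gap was narrowest in SC_1 (-0.09). The mean Wfs1 difference was -0.28 (SE 0.040, limma adjusted p = 0.146). The groups overlapped in standard cages and were apart with enrichment, as they were for 10.4% of all probe sets in either direction. The log2 intensity of Grp was 8.07, 8.01, 8.17, 8.02 and 8.58 on the Wild-type arrays of standard-cage pairs 1 to 5, beside 7.51, 7.64, 7.93, 7.72 and 8.22 on the arrays labelled cbp+/-. The enrichment pairs gave 7.88, 8.11 and 8.68 on the Wild-type arrays and 7.84, 7.62 and 8.17 on those labelled cbp+/-. EE_1 was nearly level, at -0.04, and the other 7 pairs lay between -0.56 and -0.25. The mean for Grp was -0.36 (SE 0.054, limma adjusted p = 0.146). With array weights limma called Grp (-0.39) and Parm1 (-0.27) lower and Pcdhb3 and Asl higher, with adjusted p-values of 0.0293 to 0.0430.

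Of the genes in the plot of pair differences, Bfsp2 alone had groups that did not overlap in either housing, which 5 of all 21780 probe sets (0.023%) shared in the same direction. In standard-cage pairs 1 to 5, Bfsp2 measured 5.81, 5.81, 5.85, 5.89 and 5.92 (log2 intensity) on the Wild-type arrays and 5.72, 5.70, 5.63, 5.73 and 5.67 on the arrays labelled cbp+/-. In enrichment pairs 1 to 3 the Wild-type levels were 6.15, 5.93 and 5.96, against 5.81, 5.77 and 5.82. It is dim (percentile 34.3), and its mean difference was -0.19 (SE 0.034, limma adjusted p = 0.205). Spred2 was read by 2 probe sets, at -0.22 with 8 of 8 pairs lower and at -0.12 with 7 of 8 lower. Cdh4 had a mean of -0.25 (SE 0.038), and its enriched arrays labelled cbp+/-, 6.26 to 6.41, lay below the Wild-type ones, 6.66 to 6.74. Enriched groups were apart in either direction for 10.4% of all probe sets. Acvr1c, which encodes the activin receptor ALK7, had a difference of -0.34 (SE 0.080, limma adjusted p = 0.267) and was lower in 8 of 8 pairs.

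Penk, which encodes the opioid precursor proenkephalin and is a textbook CREB target, had, with Grp, the widest mean difference among the named genes lower in 8 of 8 pairs. Penk stood at 8.97, 9.26, 8.63, 8.14 and 9.21 (log2 intensity) on Wild-type standard-cage arrays 1 to 5 and at 8.48, 8.54, 8.52, 7.78 and 8.75 on their partners labelled cbp+/-. With enrichment, Wild-type arrays 1 to 3 gave 9.24, 9.40 and 10.18 for Penk and their partners 9.19, 9.14 and 9.74. Both groups ranged widely, by over 1 log2 unit on the Wild-type arrays, and overlapped in both housings. Its mean difference was -0.36 (SE 0.067, limma adjusted p = 0.205), with -0.43 in standard cages and -0.25 with enrichment. Vgf, another secreted peptide precursor, was lower in 7 of 8 pairs at -0.12 (SE 0.057). Nts, the neurotensin precursor, went the other way at 0.19 (SE 0.052, 7 of 8 pairs higher), and Npy, a peptide of interneurons, stood at -0.01 (SE 0.054). Of 15 measured CREB-target neuropeptide and secreted factor genes, 7 were higher and 8 lower, with 2 each way under an unadjusted p of 0.05 (beside 4.96% higher and 3.94% lower among all probe sets) and a median of -0.010, which took the other sign in 7 of 19 alternative settings.

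The genes of the neuronal response to activity had small mean differences. Bdnf, the neurotrophin, stood at -0.07 (SE 0.065). Its pair SC_3 was at -0.55 and the other 7 pairs between -0.11 and 0.12, with a mean of -0.0041. Fos was at -0.01 (SE 0.065) and Npas4 at -0.04 (SE 0.086), with 4 and 3 of 8 pairs higher. Of 35 immediate early genes, 12 were higher and 23 lower (median -0.028), beside 9739 and 12041 of all probe sets. Under an unadjusted p of 0.05, 1 was above and 5 below (all probe sets, 4.96% and 3.94%). These were Dusp5, a phosphatase of MAP kinases, at 0.12, and Inhba (-0.15), Btg2 (-0.13), Fosb (-0.11), Homer1 (-0.10) and Egr3 (-0.09). Creb1 itself differed by -0.05 (SE 0.040), Crem by 0.02 (SE 0.044) and Crtc1, a CREB coactivator, by 0.03 (SE 0.042). In the CREB family and coactivator list, 8 of 16 members were higher, with Atf4 at 0.15 and Cited2, which binds CBP, at -0.10.

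CREB binds the palindrome TGACGTCA or its shorter form TGACG. RefSeq promoters (assembly GRCm38.p6, 250 bases before to 50 after the start) were found for 27 of the 38 genes fixed or ranked over the 8 pairs (all but Asl, Cdh4, Crem, Grp, Kcnq3, Pcdhb2, Pcdhb3, Pcdhb4, Pcdhb7, Penk and Vgf), with 37 promoters in all. TGACGTCA was in 0 of these 37 (1.79% of 32851 promoters of that table). TGACG, read on both strands, was in 8 of 37 (21.6%, against 20.8% of all promoters). Of these promoters 5 are shown, to let the motif be set beside the differences given here, with each TGACG or its reverse complement CGTCA in capitals: activity genes with small differences (Fos, Npas4), genes of the lower group with a match (Bfsp2, Spred2) and without (Sox11).
Fos, chr12:85473640-85473939, strand +: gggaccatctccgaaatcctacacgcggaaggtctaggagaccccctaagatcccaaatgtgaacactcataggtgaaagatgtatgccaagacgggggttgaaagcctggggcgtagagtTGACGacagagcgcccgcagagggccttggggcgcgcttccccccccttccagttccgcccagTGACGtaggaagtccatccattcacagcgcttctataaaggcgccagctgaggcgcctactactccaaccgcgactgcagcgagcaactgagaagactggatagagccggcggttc
Npas4, chr19:4989922-4990221, strand -: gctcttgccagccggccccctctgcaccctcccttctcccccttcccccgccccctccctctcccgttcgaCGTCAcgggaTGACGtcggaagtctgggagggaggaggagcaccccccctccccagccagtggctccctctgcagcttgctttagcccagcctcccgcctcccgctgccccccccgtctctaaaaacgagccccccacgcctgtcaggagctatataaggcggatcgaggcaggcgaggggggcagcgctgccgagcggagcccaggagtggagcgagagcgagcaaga
Bfsp2, chr9:103449127-103449426, strand -: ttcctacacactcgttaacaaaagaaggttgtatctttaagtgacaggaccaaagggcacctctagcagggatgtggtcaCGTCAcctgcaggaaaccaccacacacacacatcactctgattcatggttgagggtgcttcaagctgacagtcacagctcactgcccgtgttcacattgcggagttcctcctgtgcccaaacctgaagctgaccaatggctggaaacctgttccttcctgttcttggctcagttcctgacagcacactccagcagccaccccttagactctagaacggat
Spred2, chr11:19924192-19924491, strand +: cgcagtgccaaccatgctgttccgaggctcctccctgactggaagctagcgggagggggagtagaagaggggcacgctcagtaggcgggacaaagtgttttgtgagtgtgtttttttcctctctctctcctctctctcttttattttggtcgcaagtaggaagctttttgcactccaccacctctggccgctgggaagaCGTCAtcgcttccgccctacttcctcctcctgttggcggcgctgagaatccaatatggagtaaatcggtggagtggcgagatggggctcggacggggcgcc
Sox11, chr12:27342669-27342968, strand -: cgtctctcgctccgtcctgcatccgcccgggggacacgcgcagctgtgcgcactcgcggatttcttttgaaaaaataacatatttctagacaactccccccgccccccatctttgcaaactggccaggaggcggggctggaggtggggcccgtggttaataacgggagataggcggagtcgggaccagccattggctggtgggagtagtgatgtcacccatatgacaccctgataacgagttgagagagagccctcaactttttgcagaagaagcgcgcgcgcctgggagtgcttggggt
Fos and Npas4 hold 2 matches each and had differences of -0.01 and -0.04, Bfsp2 and Spred2 hold 1 each and had -0.19 and -0.22, and Sox11 with none had -0.30. These 5 were picked, so their order is no trend. The other genes with a match in a promoter were Anxa4 (0.27), Atp6v1f (0.22), Rplp0 (0.23) and Bdnf (-0.07). Genes without a match went both ways, such as Vtn (0.32) and Wfs1 (-0.28). A match is a description of these letters and not a site, and no match says nothing of the factor.

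Of 16 measured genes of newborn granule neurons, 3 had a higher and 13 a lower mean on the arrays labelled cbp+/- (all probe sets, 9739 and 12041). The median difference was -0.049, or -0.031 without EE_3, and it lay below 0 in 8 of 8 pairs (-0.13 to -0.02). Under an unadjusted p of 0.05, 0 members were higher and 3 were lower (3.94% of all probe sets), each in 8 of 8 pairs (0.927%): Sox11, Sox4 and Stmn1. The log2 intensity of Sox11 was 7.48, 7.48, 7.35, 7.47 and 7.20 on the Wild-type arrays of standard-cage pairs 1 to 5, beside 7.11, 6.96, 7.34, 7.18 and 6.98 on the arrays labelled cbp+/-. The enrichment pairs gave 7.24, 7.07 and 7.73 on the Wild-type arrays and 7.03, 6.77 and 7.27 on those labelled cbp+/-. The partners of SC_3 were level, and the largest gap was in SC_2. The mean Sox11 difference was -0.30 (SE 0.052, limma adjusted p = 0.175). Sox4, a related factor, stood at -0.19 (SE 0.035, limma adjusted p = 0.210) and Stmn1, which destabilizes microtubules, at -0.11. Dcx, the microtubule protein that marks migrating neuroblasts, was at -0.05 (SE 0.045) with 3 of 8 pairs higher. Over 16 stem cell and proliferation genes the median was -0.036, or -0.016 without EE_3. Ccnd2, the cyclin of hippocampal progenitors, was at -0.16 (SE 0.035, 7 of 8 pairs lower). Its standard-cage groups did not overlap, 9.52 to 9.67 against 9.32 to 9.48, as for 0.262% of all probe sets in either direction.

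Markers of mature hippocampal neurons also had medians below 0. Of 15 pyramidal cell genes of CA1, CA2 and CA3, 3 were higher and 12 lower (all probe sets, 9739 and 12041). Their median of -0.040 was below 0 in 8 of 8 pairs and stood at -0.016 without SC_4. Besides Wfs1, Bok had an unadjusted p under 0.05, at 0.27, with the Wild-type array of EE_3 low at 6.89 and a mean of 0.16 without that pair. Of 14 genes of mature dentate granule cells, 4 were higher and 10 lower (median -0.083, or -0.049 without EE_3). Their pair medians ran from -0.21 to 0.13, with 3 pairs above 0 and 5 below. Under an unadjusted p of 0.05, 1 was higher and 4 were lower (all probe sets, 4.96% and 3.94%). Trpc6, a cation channel of that list, had -0.20 (SE 0.050). Potassium, sodium and calcium channels gave 6 higher and 21 lower of 27, with 0 higher and 8 lower under an unadjusted p of 0.05 (3.94% of all probe sets): Kcnq3, Cacna1g, Kcnq5, Kcnc2, Kcna1, Kcnn2, Scn2a and Kcnma1. Kcnq3 stood at 9.21, 9.10, 9.54, 9.46 and 8.82 (log2 intensity) on Wild-type standard-cage arrays 1 to 5 and at 8.93, 8.92, 9.38, 9.22 and 8.66 on their partners labelled cbp+/-. With enrichment, Wild-type arrays 1 to 3 gave 9.0, 9.03 and 8.60 for Kcnq3 and their partners 8.75, 8.87 and 8.50. The 2 brightest arrays under either label were those of SC_3 and SC_4, and the difference was -0.19 on average (SE 0.030, limma adjusted p = 0.146). Cacna1g, a T-type calcium channel, had -0.23 (SE 0.045, 8 of 8 pairs lower). The channel median of -0.044 kept its sign in 19 of 19 alternative settings, some of which leave the differences as they are. It was -0.024 without EE_2. For genes of the excitatory synapse the median was -0.017, or -0.0045 without SC_1, and 0 of 27 were higher and 3 lower under an unadjusted p of 0.05 (all probe sets, 4.96% and 3.94%), among them Grik3 and Grm3 (-0.14, SE 0.037).

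Several lists of non-neuronal or housekeeping genes had medians above 0. The 16 endothelial and pericyte genes had a median of 0.056, above 0 in 8 of 8 pairs (0.0045 to 0.125) and at 0.036 without SC_5, with 12 members higher, 2 of them under an unadjusted p of 0.05 (4.96% of all probe sets). Vtn, made in brain chiefly by pericytes, had a mean of 0.32 (SE 0.058, limma adjusted p = 0.203), and Slc2a1, the glucose transporter of the blood-brain barrier, 0.27 (SE 0.094), with EE_3 at 0.99 and the other 7 pairs between -0.11 and 0.29. Without EE_3 the mean of Slc2a1 was 0.17. In standard cages the summed intensity of the endothelial list was 3910 to 5166 on arrays labelled cbp+/- and 3960 to 4565 on Wild-type arrays. With enrichment it was 4306 to 4497 against 3529 to 3944. Oxidative phosphorylation subunits were higher in 26 of 29 (median 0.060), 4 of them under an unadjusted p of 0.05 (4.96% of all probe sets). Without EE_1 and EE_3, the pairs of widest spread, the median was 0.011. The list had medians of 0.135 with enrichment and 0.010 in standard cages, and the difference between these medians was not tested. Cold-inducible and splicing genes were higher in 18 of 19 (median 0.056), 4 of them under an unadjusted p of 0.05 (again beside 4.96%). Tra2b, a splicing regulator, had 0.13 (SE 0.035, 8 of 8 pairs higher) and, in its other probe set, 0.10 (SE 0.077, 5 of 8), and Rsrp1 had 0.17. Igf2, a growth factor of meninges and choroid plexus, was higher in 8 of 8 pairs with a mean of 0.33 (SE 0.075). Dcn, a matrix gene of the meningeal list, had -0.24 (SE 0.075, 6 of 8 pairs lower), and that list was split at 6 and 6 of 12 with a median of 0.006; the part of these cells in the Igf2 values was not tested. Vegfa, the vascular growth factor, was higher in 8 of 8 pairs at 0.15 (SE 0.037).

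**Figure D3:**
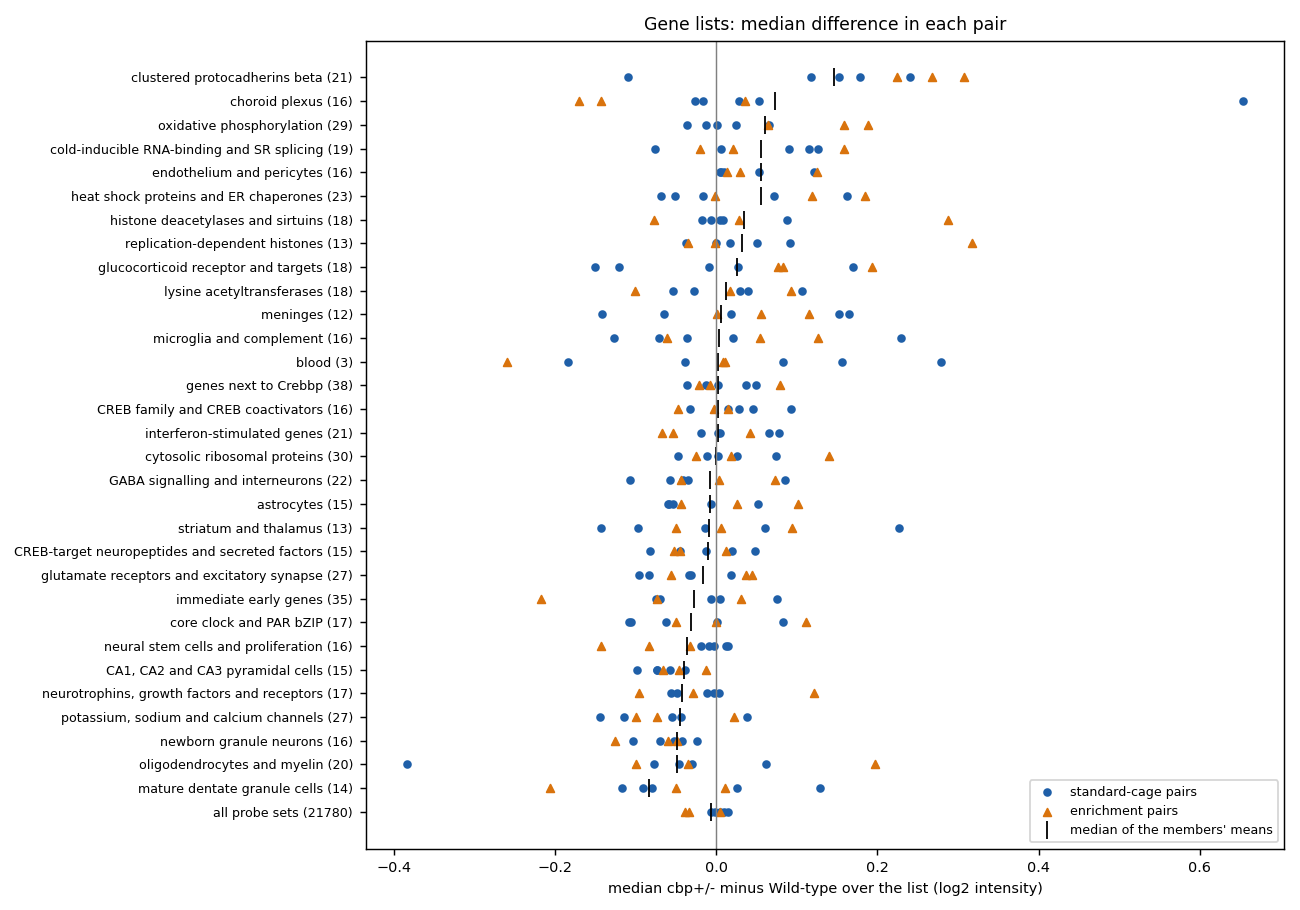
Median difference (cbp+/- minus Wild-type, log2 intensity, x axis) of each gene list in each of the 8 pairs, with the number of measured members in brackets; circles are standard-cage pairs, triangles enrichment pairs and bars the median of the members' means. Protocadherin beta genes lie farthest right in their median (0.146), endothelial genes are above 0 and newborn neuron and pyramidal genes below 0 in 8 of 8 pairs, and choroid plexus genes have SC_3 alone at 0.65.

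Some lists stood apart in single pairs. In choroid plexus genes, SC_3 had a median of 0.65 and the other 7 pairs -0.17 to 0.05; the summed intensity of the 16 genes reached 8198 on a standard-cage array labelled cbp+/-, against 863 to 2726 on the Wild-type ones. Kl, the klotho gene of that tissue, was at 1.40 in SC_3, and Igf2 at 0.91, its mean over the other 7 pairs being 0.24. In histone deacetylases and sirtuins, EE_3 had a median of 0.29 and the other pairs -0.08 to 0.09, and the list gave 13 of 18 higher with Hdac3, Sirt4 and Sirt7 under an unadjusted p of 0.05 (3 of 18, beside 4.96% of all probe sets) and a median of 0.034, or 0.013 without EE_3. Oligodendrocyte genes ran from -0.38 to 0.20 between pairs (median -0.049, or -0.0028 without SC_4). Lysine acetyltransferases gave 13 of 18 higher, 4 higher and 3 lower under an unadjusted p of 0.05 (all probe sets, 4.96% and 3.94%). These were Crebbp, Kat5, Kat8 and Naa60 above and Ncoa1, Ncoa2 and Kat2b below. The list's median of 0.012 was 0.00072 without EE_1 and went to -0.004 after quantile normalization.

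The genes that neighbour Crebbp were split. Of 38 measured neighbours on chromosome 16, up to 25 on each side in RefSeq order, 20 were higher and 18 lower, with a median of 0.002. Under an unadjusted p of 0.05, 5 of 38 were higher (4.96% of all probe sets) and 0 lower (3.94%): Zfp263, a zinc finger gene, at 0.18 (SE 0.041, 8 of 8 pairs higher), Nudt16l1 at 0.18 (SE 0.056), Trap1, Glyr1 and Naa60.

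Each housing was also read on its own in the same fit. In the 5 standard-cage pairs limma called 0 probe sets (smallest adjusted p = 0.654), with 957 (4.39%) under an unadjusted p of 0.05, 455 higher and 502 lower. In the 3 enrichment pairs it called 0 as well (0.294), with 2838 (13%) under that p, 1410 higher and 1428 lower. Both housings shared 1 estimate of spread per probe set, although EE_1 and EE_3 had the widest SDs of differences (0.210 and 0.236). The counts of the housings are therefore not a comparison of effect sizes. The difference between the housings gave 0 calls (smallest adjusted p = 0.731) and 1441 (6.62%) under an unadjusted p of 0.05. Leaving out 1 pair at a time, that last count ran from 904 (without SC_2) to 2863 (without EE_2), the enrichment count from 1945 (without EE_3) to 4179 (without EE_2) and the standard-cage count from 713 to 1253. Differences in standard cages and with enrichment were -0.29 and -0.25 for Wfs1, -0.37 and -0.35 for Grp, 0.37 and 0.34 for Pcdhb7, 0.22 and 0.20 for Nudt17, and -0.28 and -0.32 for Sox11. Pcdhb2 was larger with enrichment (0.73 against 0.35), by 0.38 (adjusted p = 0.731, limma).

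The 8 genes with the smallest p for a difference between housings had an adjusted p of 0.731 (limma). The difference cbp+/- minus Wild-type was more positive with enrichment for Dync1li1, a dynein light intermediate chain, Ppm1b, a phosphatase, Kdelr1, a retrieval receptor of the Golgi, and Rwdd2a. Their Wild-type means with enrichment were 8.35, 6.74, 7.91 and 6.76, against 8.65, 7.03, 8.17 and 6.95 in standard cages. Means on arrays labelled cbp+/- were 8.59, 6.96, 8.31 and 7.01, against 8.57, 6.86, 8.15 and 6.95. Dync1li1 was lower in each of the 5 standard-cage pairs (mean -0.08) and higher in each of the 3 enrichment pairs (0.24). Ppm1b showed -0.17 and 0.21 in the same order. Prss52, a serine protease, went from 0.17 to -0.16, and Lif, a cytokine, Myog, a muscle factor, and Vpreb3 from 0.05, 0.05 and 0.04 to -0.36, -0.31 and -0.28. The last 4 are dim (percentiles 20.1 to 31.8). Their differences between housings were -0.41 for Lif, -0.36 for Myog, -0.33 for Prss52 and -0.32 for Vpreb3. Over the alternative settings they shrank to as little as -0.21, -0.18, -0.14 and -0.16. Over probe sets as dim as these (mean log2 intensity 5.28 to 6.09), median differences were -0.13 in EE_1, -0.10 in EE_3 and 0.01 in EE_2. Standard-cage pairs ran from -0.07 to 0.06 there. The part of brightness in these values was not tested. For Lif the enriched Wild-type arrays were the bright ones, at 5.95 to 6.08 against 5.46 to 5.86 on the other 13 arrays.

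The 8 pairs differed in spread and in how brightness moved with the difference. The SD of the 21780 differences was 0.115 to 0.174 in 6 pairs and 0.210 and 0.236 in EE_1 and EE_3. In EE_1 the median difference was -0.13 in classes 3 and 4 of 10 classes of brightness and 0.11 in the brightest, SC_3 and EE_3 ran the same way, and SC_1 and SC_2 the opposite way (0.06 in class 4 and -0.03 and -0.04 in the brightest). SC_4 and EE_2 were within 0.03 of 0 throughout. Differences of 2 pairs correlated over all probe sets at -0.38 to 0.50, with a median of 0.07, the highest value between SC_1 and SC_2 and the lowest between SC_2 and EE_1. These correlations are across probe sets, which are not independent replicates. With the brightness trend removed in each pair, limma again called 0 probe sets (smallest adjusted p = 0.0786), with 1064 higher and 1015 lower under an unadjusted p of 0.05.

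**Figure D4:**
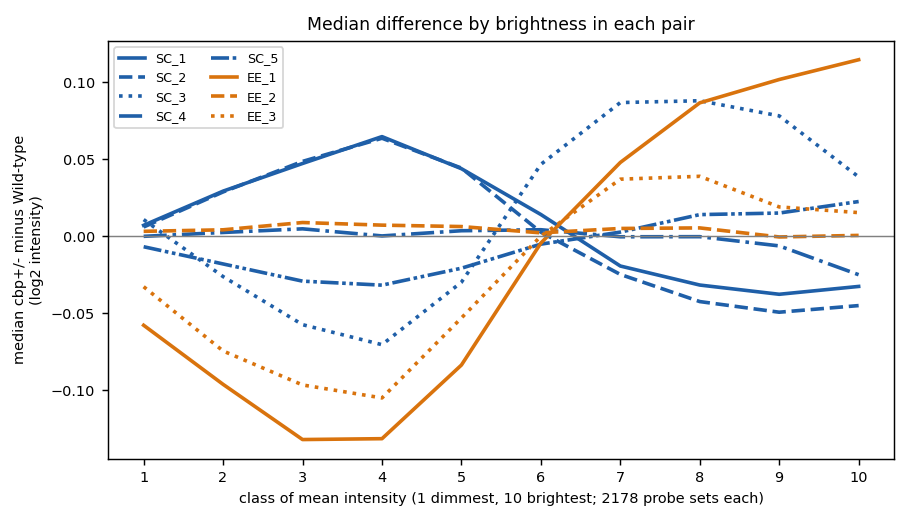
Median difference (cbp+/- minus Wild-type, log2 intensity, y axis) in 10 classes of mean brightness (x axis, 2178 probe sets each) for each of the 8 pairs. EE_1, SC_3 and EE_3 dip in the dim classes and lie above 0 in the bright ones, SC_1 and SC_2 run the other way, and SC_4 and EE_2 stay near 0.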

How the data were processed

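Biotin-labelled hippocampal RNA was hybridised to Affymetrix Mouse Gene 1.0 ST arrays. The deposited intensities are on a linear scale, 1 value per probe set and array; the labels' protocols name GeneSpring GX and the submitters' processing notes RMA, with version, genome build and baseline not given in the sources used here. Values ran from 22.31 to 14937.99 over the 21780 probe sets with 1 symbol, with 0 missing. Another 1605 probe sets had several symbols and 5430 none, and these were not named; 21689 of those tested matched RefSeq (GRCm38.p6) by gene number.

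Log2 was taken of the deposited intensity, and the difference cbp+/- minus Wild-type formed in each pair. limma 3.58.1 (R 4.3.3) fitted an intercept over 8 pairs (7 residual degrees of freedom) and 1 mean per housing (6), with eBayes and Benjamini-Hochberg adjustment over 21780 probe sets, threshold 0.05. The replicate numbers were taken to pair the samples by a rule of a correlation over 0.1. Deviations of same-numbered arrays from their group means correlated at 0.26 to 0.77 in 8 of 8 pairs, and 4 of 8 correlated best with their own number. Across numbers the highest correlation with enrichment was 0.66 (cbp+/- array 2 with Wild-type array 1), above 0.26 and 0.31 for EE_1 and EE_2. In standard cages it was 0.62 (cbp+/- array 1 with Wild-type array 2), above 0.59 and 0.54 for SC_1 and SC_2. The paired p-values rest on this pairing. The number of arrays limits the precision.

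Named genes were 12 fixed ones, the 12 with the smallest p per direction, the 5 of largest mean difference among those with 8 of 8 pairs one way, the 4 of smallest p per direction between housings, and 2 per gene list (31 lists, 596 of 659 entries measured, 1 probe set a gene, the brightest), without predicted models, olfactory, vomeronasal and Y genes in the ranked parts. Members, lists and tests were chosen with earlier results of these data known. Lists are described by counts and medians and were not tested. Promoters came from RefSeq. The fit was checked on simulated data. Alternatives were no pairs, pairs as a random block, quantile normalization, a filter on dim probe sets, log2(signal + 50), trended robust eBayes, array weights, equal housings and leaving out each pair; after seeing the data, all deposited probe sets, a loess on brightness, and leaving out EE_1 and EE_3 were added.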

Additional observations from a re-analysis of the deposited data

Results flagged for a closer look

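In 129 sets of 8 pair differences (named genes and gene lists), 22 had a pair whose gap to its nearest neighbour was above Dixon's 95% critical share of the whole range; chance gives about 1 in 20. In EE_3, the differences (cbp+/- minus Wild-type, log2 intensity) stood out at 0.59 for Asl, 0.0022 for Parm1 (the other 7 pairs lay between -0.34 and -0.20), 0.041 for Ccnd2, 0.99 for Slc2a1, 0.45 for Sdha, 0.48 for Kat5, 1.01 for Bok, 0.50 for Sirt7, 1.00 for H2aw and 0.53 for H4c4. The medians of the histone deacetylase and sirtuin list (0.29), the neurotrophin, growth factor and receptor list (0.12) and the replication-dependent histone list (0.32) also stood out in EE_3. Without EE_3 the mean differences of H2aw and H4c4 were 0.10 and 0.03, and that of Bok 0.16.

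SC_3 stood apart for Igf2 (0.91), Otx2 (0.75), Kl (1.40), the choroid plexus list (median 0.65) and Bdnf (-0.55, the mean over the other 7 pairs being -0.0041). SC_4 stood apart for Tspan2 (-0.55) and Hif3a (-0.10), EE_1 for Trpc6 (0.14) and SC_1 for the protocadherin beta list (median -0.11).

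In 3 of the named genes the 5 standard-cage pairs all went one way and the 3 enrichment pairs the other. The mean with enrichment minus that in standard cages was -0.33 for Prss52, 0.32 for Dync1li1 and 0.38 for Ppm1b. limma's test of that difference gave an adjusted p of 0.731 for each. All 3 had been named for a small p of that same difference, so the pattern follows in part from the choice. The share of all probe sets with this pattern was not counted.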

How the results depend on the processing

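The count of 0 probe sets over 8 pairs became 1 with dimmer probe sets left out (Pcdhb3, adjusted p = 0.0308), 4 with array weights and 0 to 2 over fits leaving out 1 pair each, the 2 (Pcdhb3 and Pcdhb7) without standard-cage replicate 1. It was 0 in the 9 other settings run for it. With no replicate block limma called 0 probe sets (smallest adjusted p = 1) and gave 238 higher and 372 lower at an unadjusted p under 0.05, and with the pair as a random block (consensus correlation 0.44) 0, 753 and 1013. Quantile normalization gave 1003 higher and 1052 lower, the dim filter 829 and 438, and without standard-cage replicate 3 the split was 801 and 898. The counts in each housing and for their difference were 0 in every setting run; without both enrichment pairs of widest spread (EE_1 and EE_3) they were not run, 1 enrichment pair being left.

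Crebbp kept its sign, at 0.11 to 0.14, in 19 of 19 settings. Since 8 of 8 pairs were above 0, leaving out or reweighting pairs could not change that sign. Settings such as no pairs, a random block or trended eBayes alter the test and not the mean difference. Of 80 genes followed over 8 pairs, 6 changed sign somewhere, each close to 0. Leaving out 1 pair at a time, Crtc1 ran from -0.0078 (without enrichment replicate 3) to 0.048, Ep300 from -0.0060 (without standard-cage replicate 4) to 0.047, Npas4 from -0.13 to 0.0080 (without enrichment replicate 2), Crem from -0.0051 (without enrichment replicate 1) to 0.042, Npy from -0.047 to 0.014 (above 0 without standard-cage replicates 2 or 3 or enrichment replicates 1 or 2) and Fos from -0.048 to 0.046 (above 0 without standard-cage replicate 5 or enrichment replicates 1 or 2). Fos was at 0.022 without the enrichment pairs of widest spread. The cause was not tested. Of 1504 gene values under alternatives, 1485 kept direction and side of the threshold and 7 passed it. Of 589 list medians, 588 moved by less than 1 SD between pairs. Some settings leave the differences as they are, and leaving out 1 pair tends to move a median by only part of that SD. Neither count is therefore a measure of stability. RMA carries no detection call, so how far dim probe sets stand above background is not known here.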

Other observations

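By chromosome, probe sets higher in 8 of 8 pairs made up 0.678% (chromosome 3) to 2.41% (chromosome 18) of those tested; on chromosome 18 they were 12 of 498, and 6 of them were protocadherin beta genes. On chromosome 16, which carries Crebbp, the share was 1.14% (8 of 703). Probe sets lower in 8 of 8 pairs made up 0.387% (chromosome 3) to 1.54% (chromosome 10). These shares are described and were not tested.

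Other gene groups were described by their medians over 8 pairs. The 23 heat shock and ER chaperone genes had 18 members higher (median 0.055, or 0.026 without EE_1). Their pair medians ran from -0.07 to 0.19 and were above 0 in 4 of 8 pairs. Under an unadjusted p of 0.05, 1 of 23 was higher and 0 lower (all probe sets, 4.96% and 3.94%): Dnajb5, a co-chaperone, higher in 8 of 8 pairs at 0.15 (SE 0.034). Core clock and PAR bZIP genes had 11 of 17 lower, beside 12041 of all 21780 probe sets. Of them 2 were under an unadjusted p of 0.05 (3.94% of all probe sets), with Hlf lower in 8 of 8 pairs at -0.19 (SE 0.041). Glucocorticoid receptor targets had a median of 0.026 (0.0082 without SC_3 and 0.060 without SC_5), and Nr3c1, the receptor itself, stood at -0.12 (SE 0.034, 7 of 8 pairs lower). Cytosolic ribosomal protein genes were split at 15 and 15 of 30, with 4 of 30 higher (4.96% of all probe sets) and 0 lower (3.94%) under an unadjusted p of 0.05. Interferon-stimulated genes had 3 higher and 0 lower of 21 under that p, beside the same shares of all probe sets, among them Ddx58 at 0.13. Astrocyte genes had a median of -0.007, meningeal genes 0.006, the 3 blood genes 0.002, striatal and thalamic genes -0.008, and inhibitory neuron genes -0.007.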
